A study of Mus musculus with 26 samples.

Results

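Across 26 libraries of sorted mouse thymocytes, the 43 genes described here make or prepare new DNA in S phase. They are a list of gene names, set with earlier results of these data known and with no threshold on the values, out of the 46517 gene symbols in the deposited table, and all 43 were measured and passed the filter on low values (a normalized count of at least 10 in at least 2 libraries, met by 16372 symbols). In all 3 T cell receptor (TCR) lines their levels were high when positive selection began, low at its late stage and high again in mature CD8 single-positive (CD8SP) thymocytes. The mature OT-1 group had the highest group mean for 37 of the 43 genes and the early OT-1 group for 4, and the lowest group mean lay in a late group of TG6 or F5 for 41.

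The libraries came from mice that each carry 1 TCR transgene. TG6 mice (TG6tg H2b/d, bred on C57/BL6 x B6.C-H2d/bByJ) have low, F5 mice (F5tg Rag1KO on C57/BL6) intermediate and OT-1 mice (OT-1tg Rag2KO on C57/BL6) high self-reactivity. F5 and OT-1 mice cannot rearrange endogenous receptors, and for TG6 the labels give no Rag deletion, so in comparisons with TG6 the line, Rag deficiency and MHC background change together and cannot be told apart. Between OT-1 and F5 the TCR changes together with which Rag gene is deleted. The sorted populations were called early positive selection where thymocytes carried both CD4 and CD8 and were CXCR4+CCR7-, late positive selection where they carried both and were CXCR4-CCR7+, and mature CD8SP where they were CD4-CD8+ and also CXCR4-CCR7+, with 3 libraries per group, except that TG6 late positive selection had 2; ages per library are not in the labels. All values are the deposited normalized counts, and a log2 difference is the difference between 2 group means of log2(value + 1). These are bulk samples, so more dividing cells and more RNA per dividing cell cannot be told apart.

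DNA is copied once per cell cycle, at origins that are licensed in G1, when Orc1, Cdc6 and Cdt1 load the ring of Mcm2 to Mcm7. At the start of S phase Cdc45 and the GINS subunits join the ring to form the active helicase, DNA polymerases alpha, delta and epsilon copy the strands, and Pcna clamps them to the template. Most of these genes are targets of the E2F transcription factors and rise together as cells leave G1. In the thymus, extensive division precedes the double-positive stage and is known again in maturing single-positive cells, whereas cells undergoing positive selection are mostly out of cycle.

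Totals of the deposited values lay between 16134786 and 18944173 per library. The sort markers went with the labels for Cd4, which was at 62.8 to 461 in the mature libraries against 1455 to 22731 at the other stages, and for Ccr7, at 112 to 863 at early positive selection against 2698 to 12719 later. Within groups, mature Cd4 was highest in TG6 replicate 3 (461 against 129 and 77.1) and F5 replicate 2 (350 against 216 and 211). In OT-1 it was highest in replicate 3 (268 against 129 and 62.8). Late F5 replicate 2 had the lowest Ccr7 of its group (2698 against 7609 and 3615) and the highest Cd4 (10664 against 5160 and 7981). Cxcr4 went with the labels less well. It was highest at the early stage in TG6 (4598 to 5527, against 1024 to 2067 later), but mature OT-1 libraries (1219 to 3316) overlapped early ones (1425 to 2898), and mature F5 replicate 3 (4031) was above 2 of the 3 early F5 libraries. T cell markers were high in every library (5 genes, summed values 39604 to 61968). The 4 NK cell markers summed to 8.15 to 116 in early libraries and 1354 to 2863 in mature ones. In the mature libraries nearly all of the sum came from Nkg7, which CD8 T cells also express. The 7 markers of macrophages and dendritic cells summed to 139 to 350 in early OT-1, against 57.6 to 107 in early TG6 and 46.1 to 110 in early F5. Rag1 was still read at 10835 to 16266 in early F5 and Rag2 at 176 to 291 in early OT-1. Which part of either gene the knockout alleles lack is not in the files, so these values do not check the genotypes. Of the mature libraries, TG6 replicate 3 and F5 replicate 2 stood above the other libraries of their groups in the replication genes. In the same libraries 7 markers of immature double-negative and immature single-positive thymocytes (Il2ra, Kit, Ptcra, Cd44, Dntt, Hes1 and Notch3) summed to 12975 and 10030, against 2616 and 2998 in the other TG6 and 4663 and 6941 in the other F5 mature libraries. Their part in the results was not tested, and the counts and medians of the 43 genes in comparisons that use the mature TG6 or F5 group are given with and without both libraries. Both libraries were picked for standing high in these genes. Leaving them out therefore raises the mature OT-1 differences and lowers the mature TG6 and F5 levels by construction, and adds no support for either.

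The mean level of the 43 genes (the geometric mean of value + 1) was 941, 930.1 and 1084 in TG6, 1239.8, 1376 and 1281 in F5 and 1612, 1707 and 1595 in OT-1 for early libraries. For late libraries it was 228 and 232 in TG6, 224, 334 and 169 in F5 and 529, 449 and 456 in OT-1. For mature libraries it was 768, 762 and 2249 in TG6, 812, 1461 and 908 in F5 and 2043, 2081 and 1947 in OT-1. Late libraries of TG6 and F5 therefore sat at the bottom of the series, all 3 late OT-1 libraries above all of them, and the mature OT-1 libraries at the top together with TG6 replicate 3.

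**Figure D1:**
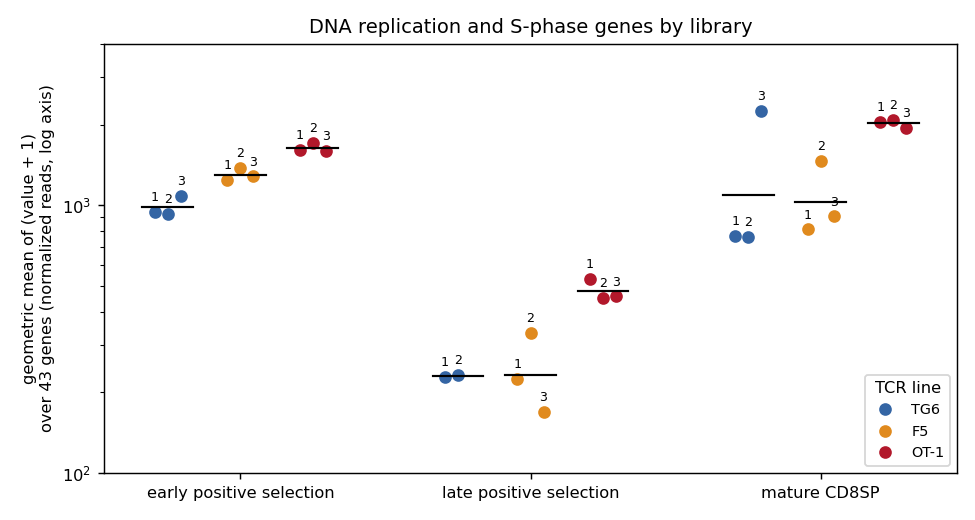
Geometric mean of (value + 1) over the 43 genes in each of the 26 libraries (log axis), by stage and TCR line; points are libraries labelled with their replicate number and bars are group means on the log scale. Late libraries lie between 169 and 529, early libraries between 930 and 1707, and TG6 mature replicate 3 (2249) stands apart from TG6 mature replicates 1 and 2 (768 and 762).

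Most of the genes followed this course closely. Over the 26 libraries, which share groups and therefore are not independent points, the correlation of each gene with the mean of the other 42 was 0.963 in the median and over 0.9 for 38 genes. The lowest values were those of Orc1 (0.493), Ung (0.73) and Gins2 (0.767). The size of the swing differed more than its shape. The range of the 9 group means ran from 1.02 on the log2 scale for Gins4 to 7.07 for Mcm10, with a median of 3.18, and Rrm2 (6.26) and Tyms (5.18) followed Mcm10.

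**Figure D2:**
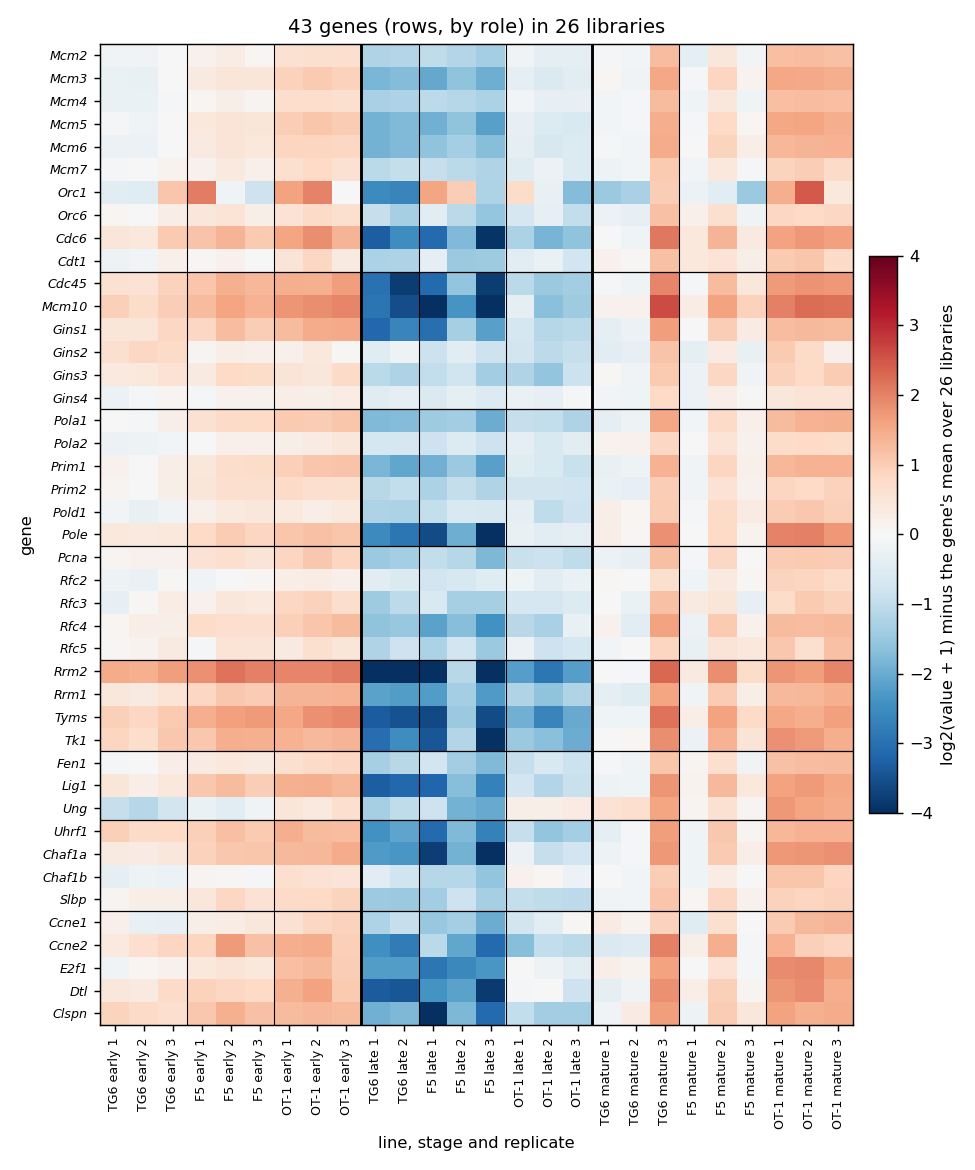
Each row is 1 of the 43 genes, ordered by role with lines between roles, and each column 1 of the 26 libraries, ordered by stage, line and replicate. Colour is log2(value + 1) minus the gene's mean over the 26 libraries and is clipped at 4 in either direction; the late TG6 and F5 columns are the darkest blue, and the Orc1 row varies between replicates more than its neighbours.

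Short sequence words were counted in the promoters of these genes. Since most genes of this kind are E2F targets, a high share of E2F words goes with the choice of the set. It is not an independent result. RefSeq promoter windows (build GRCm38.p6, from 250 bases before to 50 bases after the start site) were found for 35 of the 43 genes, with 40 windows in all, since some genes have several starts. Mcm4, Gins1, Gins2, Gins4, Prim2, Pole, Rfc2 and Ccne2 had no entry. An E2F word, taken as exactly TTTCCCGC, TTTGGCGC, TTTCGCGC or TTTGCCGC on either strand, was present in 15 of the 40 windows (37.5%), 1 for each of 15 genes, against 2.26% of all 32851 promoter windows of the same length. The CCAAT word was present in 57.5% of the windows, against 37.4% of all. The member windows were richer in C and G, with a median of 61.3% against 52.7%. E2F words can overlap each other, as on opposite strands in the Mcm5 and Mcm6 windows. A match describes letters and not a bound site. The swing over the group means was alike in the 15 genes with an E2F word (median 3.38 on the log2 scale) and the 20 genes with a window but no word (3.25). The windows below show the E2F words in capitals for 3 subunits of the helicase ring (Mcm3 at chr1:20820263-20820562, minus strand, Mcm5 at chr8:75109259-75109558, plus strand, Mcm6 at chr1:128359656-128359955, minus strand), the loader Cdc6 (chr11:98907901-98908200, plus strand), the ligase adaptor Dtl (chr1:191575495-191575794, minus strand) and the hemimethylation reader Uhrf1 (chr17:56304063-56304362, plus strand). Rrm2 (chr12:24708004-24708303, plus strand), which had the second largest swing, is shown as a window with no E2F word, with its CCAAT word in capitals.
Mcm3: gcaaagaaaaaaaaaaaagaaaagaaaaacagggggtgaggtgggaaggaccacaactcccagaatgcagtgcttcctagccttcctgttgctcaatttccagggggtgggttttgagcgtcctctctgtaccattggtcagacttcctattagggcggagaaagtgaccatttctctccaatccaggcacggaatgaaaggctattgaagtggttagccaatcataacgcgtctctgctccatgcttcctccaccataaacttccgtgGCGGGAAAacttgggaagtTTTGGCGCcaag
Mcm5: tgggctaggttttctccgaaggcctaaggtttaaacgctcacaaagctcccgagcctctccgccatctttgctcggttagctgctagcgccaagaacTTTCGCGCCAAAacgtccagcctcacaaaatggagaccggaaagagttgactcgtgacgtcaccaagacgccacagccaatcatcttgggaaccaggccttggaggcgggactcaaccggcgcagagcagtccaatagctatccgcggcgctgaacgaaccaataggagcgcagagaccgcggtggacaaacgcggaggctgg
Mcm6: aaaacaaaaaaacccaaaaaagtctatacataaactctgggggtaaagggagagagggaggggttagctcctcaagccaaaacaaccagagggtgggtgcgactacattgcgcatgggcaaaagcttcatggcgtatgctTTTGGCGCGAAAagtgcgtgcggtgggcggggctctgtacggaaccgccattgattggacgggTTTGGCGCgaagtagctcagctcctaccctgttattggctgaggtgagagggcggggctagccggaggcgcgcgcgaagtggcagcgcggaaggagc
Cdc6: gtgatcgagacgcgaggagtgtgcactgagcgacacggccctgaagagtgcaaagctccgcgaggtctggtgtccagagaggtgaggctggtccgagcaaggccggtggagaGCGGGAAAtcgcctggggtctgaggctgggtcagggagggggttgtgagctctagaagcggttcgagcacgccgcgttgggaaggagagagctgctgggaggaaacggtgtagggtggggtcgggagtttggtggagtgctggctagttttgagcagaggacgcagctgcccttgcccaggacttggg
Dtl: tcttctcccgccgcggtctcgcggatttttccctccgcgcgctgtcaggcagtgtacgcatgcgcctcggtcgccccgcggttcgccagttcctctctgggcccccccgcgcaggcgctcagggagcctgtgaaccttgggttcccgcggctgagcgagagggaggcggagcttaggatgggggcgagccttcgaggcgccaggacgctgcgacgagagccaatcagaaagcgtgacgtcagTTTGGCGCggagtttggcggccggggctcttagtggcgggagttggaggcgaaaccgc
Uhrf1: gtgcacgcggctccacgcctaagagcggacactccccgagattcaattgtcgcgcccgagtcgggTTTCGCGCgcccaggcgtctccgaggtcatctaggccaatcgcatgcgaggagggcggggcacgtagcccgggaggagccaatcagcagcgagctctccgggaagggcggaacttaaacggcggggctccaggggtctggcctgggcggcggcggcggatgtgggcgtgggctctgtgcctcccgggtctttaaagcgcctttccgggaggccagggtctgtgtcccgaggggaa
Rrm2: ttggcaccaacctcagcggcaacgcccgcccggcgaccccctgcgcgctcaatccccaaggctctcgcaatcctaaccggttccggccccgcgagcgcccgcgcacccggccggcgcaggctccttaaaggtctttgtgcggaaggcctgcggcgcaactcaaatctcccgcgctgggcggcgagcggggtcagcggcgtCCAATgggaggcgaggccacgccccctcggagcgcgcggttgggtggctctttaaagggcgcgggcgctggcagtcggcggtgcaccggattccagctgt

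Origin licensing was covered by 10 genes, Mcm2 to Mcm7, Orc1, Orc6, Cdc6 and Cdt1. Mcm2 (ENSMUSG00000002870.8, GRCm38 chr6:88883474-88898780, minus strand), a subunit of the helicase ring, read 2806, 2791 and 3041 in TG6, 3448, 3802 and 3256 in F5 and 4718, 4773 and 4904 in OT-1 in the early libraries. Late Mcm2 values were 1341 and 1348 in TG6, 1510.2, 1359.8 and 1191 in F5 and 2752, 2344 and 2312 in OT-1. Mature Mcm2 values were 2896, 2817 and 7244 in TG6, 2408, 4166 and 2856 in F5 and 7039, 7149 and 6870.5 in OT-1. Every early and every late OT-1 library was above every library of the other lines at the same stage, whereas in the mature stage TG6 replicate 3 lay above all 3 OT-1 libraries. Mcm3 and Mcm5 had the same separation at the early and late stages, while in mature cells TG6 replicate 3 lay within the range of the OT-1 libraries. Mcm5 stood at 740.0 and 810.0 in TG6, 722, 902 and 605 in F5 and 2214, 1866 and 1788 in OT-1 at late positive selection, and its lowest OT-1 value was above the highest of the other lines (902). Cdc6, the ATPase that recruits the ring to origins, had one of the largest swings of the group (4.59 on the log2 scale), from 573, 545 and 846 in TG6, 885, 1045 and 836 in F5 and 1199, 1463 and 1039 in OT-1 in early libraries to 39.9 and 70.8 in TG6, 46.1, 118 and 25.8 in F5 and 169, 110.2 and 131 in OT-1 in late ones.

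The ring subunits can also be set side by side once values are divided by the length of the principal transcript in GENCODE vM21. The highest of Mcm2 to Mcm7 per kilobase was 1.5 to 3.28 times the lowest within a library, with a median of 2.04. Mcm6 was the highest in 17 libraries and Mcm7 in 9, while Mcm4 was the lowest in 18. In early OT-1 thymocytes, for example, levels per kilobase were 2332 ± 44.0 for Mcm6 and 1165 ± 38.7 for Mcm4 (SD, n = 3). In the protein ring the subunits are present in equal numbers. The transcript lengths that RSEM used were not used here, so levels between subunits depend on the transcript chosen.

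Helicase activation was covered by Cdc45, Mcm10 and the 4 GINS subunits, and it held both the widest and the narrowest swings. Cdc45 (ENSMUSG00000000028.15, GRCm38 chr16:18780447-18811987, minus strand) was at 564, 558 and 701 in TG6, 811, 1009 and 939.7 in F5 and 1024, 1000.3 and 1181 in OT-1 early, and late values were 46.3 and 25.7 in TG6, 42.8, 125 and 25.7 in F5 and 176, 134 and 142 in OT-1. Mature Cdc45 values were 354, 329 and 1459 in TG6, 364, 906 and 511 in F5 and 1222, 1301 and 1255 in OT-1. Late F5 replicate 2 was well above both other late F5 libraries, and late OT-1 was above it by a small margin. Mcm10, which helps to start the helicase, was at 512, 438 and 527 in TG6, 645, 803 and 702 in F5 and 910.1, 972 and 1029 in OT-1 at the early stage. Its late values were 33.9 and 21.9 in TG6, 11.8, 51.2 and 0 in F5 and 205, 83.1 and 97.5 in OT-1, with 1 late F5 library listed at 0, and its mature values were 299, 301 and 1624 in TG6, 329, 814 and 505 in F5 and 1068, 1247 and 1221 in OT-1. With values this low in late F5 and a 0 among them, its F5 differences on the log2 scale depend on the added 1. Gins4, a GINS subunit, barely moved in comparison. It stood at 422, 483 and 534 in TG6, 483, 553 and 556 in F5 and 598, 576 and 603 in OT-1 early, 354 and 378 in TG6, 333, 377 and 338 in F5 and 411, 390.4 and 467 in OT-1 late and 458, 435 and 867 in TG6, 423, 597 and 508 in F5 and 679, 722 and 727 in OT-1 in the mature stage. Early and late Gins4 values did not overlap within a line.

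Primase and the replicative polymerases were covered by 6 genes. Pola1 (ENSMUSG00000006678.6, GRCm38 chrX:93304767-93632155, minus strand), the catalytic subunit of polymerase alpha, read 835, 781 and 959.9 in TG6, 1251, 1389 and 1428 in F5 and 1699.5, 1665 and 1779 in OT-1 early and 239 and 244 in TG6, 309, 316 and 208 in F5 and 437, 418 and 347 in OT-1 late. Mature Pola1 values were 622, 715 and 2410.2 in TG6, 763, 1383 and 938 in F5 and 1987, 2172 and 2213 in OT-1. At each of the early and late stages all OT-1 libraries exceeded all TG6 and F5 libraries. Its partner subunit Pola2 had the narrowest swing of the 6 genes. Pola2 values were 883, 903 and 962 in TG6, 1032, 1183 and 1182 in F5 and 1226, 1290.1 and 1412 in OT-1 early, 636 and 649.9 in TG6, 577, 708 and 587 in F5 and 784, 683 and 779 in OT-1 late and 1144, 1164 and 1833 in TG6, 1057, 1498 and 1165 in F5 and 1724, 1808 and 1728 in OT-1 in mature cells. In Pola2 the mature libraries of TG6 were all above the early ones. Pole, the catalytic subunit of the leading-strand polymerase epsilon, had much the widest swing of the 6. It read 1161, 1129.6 and 1143 in TG6, 1499, 1726 and 1569 in F5 and 1871, 1938 and 1856 in OT-1 at the early stage. Late Pole values were 147 and 114 in TG6, 70.5, 222 and 52.5 in F5 and 705, 632 and 671 in OT-1, so that the lowest late OT-1 library was well above the highest late library of the other lines. Mature Pole values were 1026, 904 and 3054 in TG6, 868, 1484 and 948 in F5 and 3427, 3517 and 2867 in OT-1.

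The sliding clamp Pcna and the clamp loader subunits Rfc2 to Rfc5 form the next group. Pcna (ENSMUSG00000027342.14, GRCm38 chr2:132249162-132253314, minus strand) read 5618, 5834 and 5835 in TG6, 7752, 8324 and 7408 in F5 and 9329.8, 10904 and 9349.5 in OT-1 at the early stage. Late Pcna values were 1857 and 2025 in TG6, 2589.6, 2364 and 1497 in F5 and 2766, 2862 and 2569 in OT-1. Mature values were 4413, 4130.4 and 11872 in TG6, 5046, 9233 and 5113 in F5 and 10379, 10779.7 and 10541 in OT-1. OT-1 was the highest line at the early stage in every library, and the late values of F5 and OT-1 overlapped. The pseudogenes Pcna-ps1 and Pcna-ps2 are annotated, so reads may be shared with them. Rfc2 had the second narrowest swing of the 43 genes. Its values were 1002, 979 and 1208 in TG6, 1025, 1178 and 1223 in F5 and 1405, 1434 and 1329 in OT-1 early, 878 and 773 in TG6, 688, 755 and 834 in F5 and 1040.1, 874 and 975 in OT-1 late and 1199, 1153 and 1838 in TG6, 1045, 1544 and 1228 in F5 and 2161, 2118 and 1936 in OT-1 in the mature stage. The highest late OT-1 library of Rfc2 was above the lowest early libraries of TG6 and F5, although early and late values did not overlap within a line.

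Deoxynucleotide supply (Rrm1, Rrm2, Tyms and Tk1) changed most as a group, with median falls from early to late positive selection of −3.997 in TG6, −4.33 in F5 and −3.51 in OT-1 on the log2 scale. Rrm2 (ENSMUSG00000020649.11, GRCm38 chr12:24708241-24714146, plus strand), the regulated subunit of ribonucleotide reductase, was at 3478, 3353 and 3969 in TG6, 4427, 5634 and 5016 in F5 and 4797, 4784 and 5226 in OT-1 early. Late Rrm2 values were 74.5 and 55.7 in TG6, 37.0, 569 and 31.3 in F5 and 268, 166 and 271 in OT-1. Mature values were 1253, 1188 and 6164 in TG6, 1593, 4491 and 2057 in F5 and 4214, 3971 and 4769 in OT-1. Late F5 replicate 2 was over 10 times both other F5 late libraries in Rrm2, and the late groups of F5 and OT-1 therefore overlapped. Tyms, which makes thymidylate, was at 1458, 1319.8 and 1536 in TG6, 2025, 2345 and 2449 in F5 and 2184, 2679.7 and 2853 in OT-1 early, and late values were 73.1 and 65.9 in TG6, 60.9, 267 and 61.2 in F5 and 198, 118 and 185 in OT-1. Mature Tyms values were 668, 667 and 3371 in TG6, 888, 2276 and 1256 in F5 and 2158, 2044 and 2315 in OT-1. It shared the high late F5 replicate 2, and a named Tyms pseudogene is annotated.

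Fen1, Lig1 and Ung finish the new strand: Fen1 removes flaps, Lig1 seals nicks and Ung removes uracil. Fen1 (ENSMUSG00000024742.15, GRCm38 chr19:10199132-10204169, minus strand) read 722, 772 and 909 in TG6, 958, 1015 and 979 in F5 and 1190.1, 1296 and 1368 in OT-1 early, 307 and 357 in TG6, 444, 289 and 225 in F5 and 404, 499 and 421 in OT-1 late and 727, 696 and 1645 in TG6, 822, 1208 and 688 in F5 and 1714, 1817 and 1843 in OT-1 in mature cells. Of its exonic bases 84.2% overlap other genes on the opposite strand, mostly Gm10143, and as strand use in counting is not given in the sources used here, reads of the 2 genes cannot be told apart. Ung took a course of its own. It stood at 175, 149.8 and 201 in TG6, 275, 242 and 303 in F5 and 464, 435 and 528 in OT-1 early. Late Ung values were 132 and 166 in TG6, 187, 88.8 and 82.8 in F5 and 397, 396 and 421 in OT-1, and mature ones were 499.8, 528 and 1009 in TG6, 359.9, 512 and 359.7 in F5 and 1105, 1003 and 941 in OT-1. Early and late values of Ung overlapped in TG6 but not in F5 or OT-1, all 3 late OT-1 libraries were above all early libraries of TG6 and F5, and every mature library was above every early library of its line.

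Uhrf1, Chaf1a, Chaf1b and Slbp tie replication to chromatin. Uhrf1 (ENSMUSG00000001228.14, GRCm38 chr17:56303321-56323486, plus strand), which brings maintenance methylation to new DNA, read 5381, 4787 and 4883 in TG6, 5343, 6360.2 and 5699.9 in F5 and 7605, 6676 and 6579 in OT-1 early. Late Uhrf1 values were 519 and 639 in TG6, 321, 816 and 425 in F5 and 1473, 931 and 1094 in OT-1. Mature values were 2115, 2687 and 8923 in TG6, 2528, 5842 and 3009 in F5 and 7011, 7276 and 7233 in OT-1. Late OT-1 was above all late TG6 and F5 libraries. The large and middle subunits of the histone chaperone CAF-1 differed in swing, 4.998 on the log2 scale for Chaf1a and 2.304 for Chaf1b, and 52.5% of the exonic bases of Chaf1a overlap Ubxn6 on the opposite strand.

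S-phase entry and its checkpoint were covered by Ccne1, Ccne2, E2f1, Dtl and Clspn. Ccne1 (ENSMUSG00000002068.16, GRCm38 chr7:38097984-38107534, minus strand), which activates Cdk2 at the G1 to S step, was at 400.5, 286 and 275 in TG6, 406, 432 and 475 in F5 and 532, 615 and 668 in OT-1 early. Late Ccne1 values were 147 and 182 in TG6, 120.4, 135 and 88.2 in F5 and 210.1, 257 and 359.7 in OT-1. Mature values were 437, 380.2 and 665 in TG6, 247, 549 and 349.9 in F5 and 724, 848 and 889.7 in OT-1. In Ccne1 the OT-1 libraries were the highest at all stages. E2f1, the transcription factor that switches on much of the set, read 429.6, 501 and 538 in TG6, 634, 691 and 642 in F5 and 1099.6, 1182 and 947 in OT-1 early. Its late values were 99.7 and 101 in TG6, 64.2, 79.3 and 93.7 in F5 and 475, 413 and 352 in OT-1, so that the lowest OT-1 library was over 3 times the highest of the other lines. Mature E2f1 values were 569, 527 and 1468 in TG6, 485, 714 and 456 in F5 and 1787, 1831 and 1453 in OT-1. Dtl, which marks Cdt1 for destruction in S phase, was at 77.3 and 72.7 in TG6, 150.2, 177 and 54.3 in F5 and 741, 791 and 437 in OT-1 in late libraries.

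The other genes of these roles followed the same course, and their lowest group mean lay in late TG6 or late F5 with the exception of Gins3, where it lay in late OT-1, as it also did for Gins2, which is described further on. The largest swings among them were those of Lig1 (4.85 on the log2 scale, library values 146 to 5000.5), Clspn, which carries the checkpoint signal to Chk1 (4.82, 24.1 to 2647), Tk1, which salvages thymidine (4.52, 25.8 to 1487), Gins1 (4.32, 15.6 to 465) and Ccne2 (3.92, 31.6 to 1143). The smallest, leaving out the genes given with library values, were those of Orc6 (1.95, 188 to 1231), Mcm7 (1.96, 1642 to 7941) and Prim2, the large primase subunit (1.99, 208 to 995). Mcm6 reached the highest value of any of them, at 10549.

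From early to late positive selection, 39 of the 43 genes fell in TG6, 42 in F5 and 41 in OT-1 (limma, Benjamini-Hochberg adjusted p under 0.05 over all 16372 genes tested). In the same direction 13.3%, 14.0% and 14.0% of all tested genes were called. The median differences over the 43 genes were −1.66, −1.99 and −1.54 on the log2 scale, beside 0, 0.04 and 0.02 over all tested genes. Rrm2 fell by 5.78 in TG6 (SE 0.80, adjusted p = 9.6e-06), by 5.82 in F5 (SE 0.72, adjusted p = 3.1e-06) and by 4.42 in OT-1 (SE 0.72, adjusted p = 9.9e-05). At the other end of the called genes, Pola2 fell by 0.51 in TG6 (SE 0.16), Rfc2 by 0.59 in F5 (SE 0.15) and Gins4 by 0.49 in OT-1 (SE 0.18). The genes that were not called were Ung (a difference of −0.23, SE 0.29), Chaf1b, Rfc2 and Gins4 in TG6, Orc1 in F5 (0.10, SE 0.85), and Ung and Orc1 in OT-1. Leaving out each library in turn gave 33 to 42 calls in these 3 comparisons.

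From late positive selection to mature CD8SP, 41 genes rose in TG6, 41 in F5 and 42 in OT-1, against 14.5%, 12.2% and 14.0% of all tested genes. The medians were 2.08, 1.87 and 2.01 on the log2 scale. Without TG6 mature replicate 3 and F5 mature replicate 2 there were 40 calls in TG6 and 41 in F5, with medians of 1.46 and 1.68. Rrm2 rose by 5.0 in TG6 (SE 0.80, adjusted p = 0.00011) and by 4.23 in OT-1 (SE 0.72, adjusted p = 0.00021), and Mcm10 by 5.88 in F5 (SE 0.85, adjusted p = 3.5e-05). Without both libraries the rise of Rrm2 in TG6 was 4.22 and that of Mcm10 in F5 was 5.55. Gins4 was the smallest called rise in each line, at 0.60 in TG6, 0.53 in F5 and 0.75 in OT-1, and the TG6 call was lost without replicate 3 (0.29). Gins2 was not called in TG6 (0.46, SE 0.32) or F5 (0.59, SE 0.29), and Orc1 in none of the lines. The 2 stage changes of a line share its late libraries, so a low late value enters both. When only the late and mature TG6 libraries entered the fit, 6 genes were called in TG6 in place of 41, while the share of all tested genes called in either direction went from 22.3% to 3.85% and the median change stayed at 2.08. Leaving out each library in turn gave 37 to 42 calls in these 3 comparisons.

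**Figure D3:**
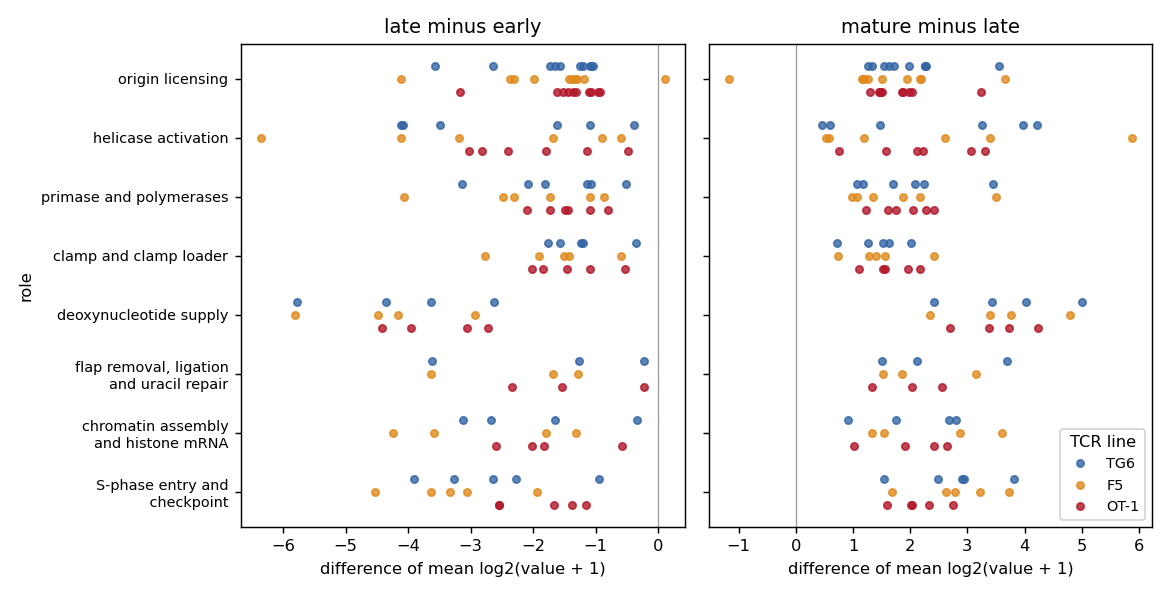
Differences of mean log2(value + 1) for each of the 43 genes (points), grouped by role, from early to late positive selection (left) and from late positive selection to mature CD8SP (right), coloured by TCR line. The genes of deoxynucleotide supply lie farthest from 0 as a group, at medians of −4.33 to −3.51 and 3.56 to 3.72, and Orc1 in F5 is the point on the other side of 0.

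The mature stage was also set against the early stage, a contrast that was added after values were seen. TG6 had 4 genes higher (background 19.4%), Ung (1.88, SE 0.26, adjusted p = 4.2e-06), Pold1, Chaf1b and Pola2 (0.56, SE 0.15). OT-1 also had 4 (background 12.8%), Ung (1.09, SE 0.26, adjusted p = 0.003), Pold1, Rfc2 and Pola2. F5 had 0 called, where 8.79% of all tested genes were lower, with 1 gene higher at an unadjusted limma p under 0.05 and a median difference of −0.32. With mouse as a block the counts were 12 in TG6 (11 higher and 1 lower), 1 in F5 and 8 in OT-1, each a smaller share of the 43 than the 42.6%, 27.9% and 31.3% of all tested genes called in either direction in that fit. The TG6 result rests on replicate 3, since without it 2 genes were higher and 6 lower and the median went from 0.12 to −0.36, while without TG6 mature replicate 1 or 2 the counts were 11 and 13 and without TG6 early replicate 2 the count was 2. In F5, 1 gene was called without mature replicate 2. Without both TG6 mature replicate 3 and F5 mature replicate 2, 21 genes were lower in mature than in early F5 thymocytes, with a median of −0.57 and 25.4% of all tested genes called in either direction, and in TG6 2 were higher and 8 lower against 36.3%. In OT-1 the count was 2 without mature replicate 1, mature replicate 2 or early replicate 2.

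The study asked how self-reactivity relates to gene expression at each stage, and the lines were compared within stages. OT-1 was higher than TG6 in 16 of the 43 genes at the early stage, 14 at the late stage and 12 in mature cells, where 15.4%, 9.34% and 4.67% of all tested genes were higher. None of the 43 was called lower in OT-1 at any stage. The markers of macrophages and dendritic cells had larger sums in OT-1 libraries at the early and late stages as well (late sums 117 to 180 against 70.0 and 73.2), and their part in the difference was not tested. The median differences were 0.82, 0.87 and 0.88 on the log2 scale, against −0.0022, 0.0017 and −0.0099 over all tested genes. At the early stage Ung (1.44, SE 0.26, adjusted p = 0.00024), Mcm3 (1.16, SE 0.28) and E2f1 (1.14, SE 0.26) had the largest called differences and Mcm7, Slbp and Pola2 (0.51, SE 0.15) the smallest. All 6 ring subunits were among the 16. At the late stage Dtl (3.07, SE 0.48, adjusted p = 1e-04), Pole (2.36, SE 0.44) and Lig1 (2.29, SE 0.43) led, and Prim1, Mcm4 and Mcm2 (0.87, SE 0.26) were the smallest. In mature cells E2f1 (1.14, SE 0.26, adjusted p = 0.0073), Mcm5 (1.09, SE 0.27) and Prim1 (1.07, SE 0.30) led, down to Chaf1b, Prim2 and Rfc2 (0.60, SE 0.15).

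Counted without a model, all OT-1 libraries were above all TG6 libraries for 39 genes at the early stage, 38 at the late stage and 3 in mature cells, where the same held for 25.1%, 27.8% and 10.7% of all tested genes. In mature cells 1 library sets this count, as TG6 mature replicates 1 and 2 were below every mature OT-1 library in all 43 genes. That comparison leaves out the library that stands high in these genes, and the same was not counted over all tested genes. The early count of 16 became 9 without TG6 early replicate 1, TG6 early replicate 2 or OT-1 early replicate 2. The late count of 14 became 6 and 9 without TG6 late replicate 1 and 2, which leaves TG6 with a single library whose spread is taken from the other groups. The mature count of 12 became 41 without TG6 replicate 3, when calls in either direction over all tested genes went from 9.74% to 27.2%. It was 0 without TG6 replicate 1 or 2, and 2, 1 and 4 without OT-1 replicates 1, 2 and 3. Its median went from 0.88 to 1.42 without TG6 replicate 3 and F5 replicate 2, and the difference in E2f1 was then 1.62 and that in Mcm5 1.61. As these libraries were picked for standing high in these genes, the direction of these shifts was fixed by leaving them out. When other groups were left out of the fit the counts were 39 (38 higher), 26 (25 higher) and 0, with the same medians, against 31.4%, 18.2% and 1.65% of all tested genes called in either direction.

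OT-1 was higher than F5 in 1 gene at the early stage, 22 at the late stage and 24 in mature cells, against 7.81%, 13.6% and 13.3% of all tested genes, and again no gene was lower. These comparisons use the same OT-1 libraries as those against TG6. The macrophage and dendritic cell markers were higher in sum here too, without overlap at any stage (late 117 to 180 in OT-1 against 41.2 to 62.0 in F5, mature 143 to 172 against 72.6 to 114), and their part in the difference was not tested. The medians were 0.35, 0.91 and 0.97 on the log2 scale. The early gene was Ung (0.80, SE 0.26, adjusted p = 0.044), and the count was 0 when any single library of either group was left out. At the late stage Mcm10 (3.77, SE 0.85, adjusted p = 0.0024), Pole (2.82, SE 0.39) and Chaf1a (2.58, SE 0.44) led, and Mcm4, Mcm2 and Mcm7 (0.65, SE 0.21) were smallest. In mature cells E2f1 (1.64, SE 0.26, adjusted p = 0.00012), Pole (1.61, SE 0.39) and Chaf1a (1.39, SE 0.44) led. All 6 primase and polymerase genes were among the 24, Pold1, Prim2 and Pola2 (0.51, SE 0.15) with the smallest differences. None of the 4 genes of deoxynucleotide supply was called, although their differences were larger than that of Pola2. They were 1.12 for Tk1 (SE 0.51), 0.97 for Rrm1 (SE 0.36), 0.81 for Rrm2 (SE 0.72) and 0.67 for Tyms (SE 0.51), with wider standard errors. All OT-1 libraries exceeded all F5 libraries for 29, 25 and 38 genes at the 3 stages, against 20.2%, 19.7% and 21.9% of all tested genes. The mature count was 12 and 13 without F5 mature replicate 1 and 3, 33 without F5 mature replicate 2, and 38 with both TG6 replicate 3 and F5 replicate 2 left out, when the share of all tested genes called in either direction went from 23.3% to 30.9%, the median was 1.26 and the difference in E2f1 was 1.84.

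F5 and TG6 did not differ in any of the 43 genes at the limma threshold. Of all tested genes 3.12% were higher in F5 at the early stage, 3.23% lower at the late stage and 4.50% lower in mature cells, these being the directions of the medians over the 43 (0.44, −0.03 and −0.10). Without TG6 replicate 3 and F5 replicate 2 the mature comparison again had 0 calls among the 43 in limma, and its median changed sign to 0.17. With all libraries kept, mature F5 replicates 1 to 3 were above TG6 replicates 1 and 2 in the mean level of the 43 genes and below TG6 replicate 3 (2249). At an unadjusted limma p under 0.05, 7 genes were higher at the early stage, 2 higher and 2 lower at the late stage, and 1 lower in mature cells. The share of all tested genes at that threshold was not taken, so these counts have no background. At the early stage all F5 libraries were nonetheless above all TG6 libraries for 30 genes (17.0% of all tested genes), and with only those 2 groups in the fit 19 were called higher and 1 lower, against 10.2% of all tested genes called in either direction. For the other stages the numbers above were 4 and 0, against 17.8% and 6.65%. All late F5 libraries were below both late TG6 libraries for another 4 genes, against 15.5%. Without F5 late replicate 2, 3 genes were lower in late F5, without F5 late replicate 3, 1 was higher, and without TG6 mature replicate 3, 2 were higher in mature F5. No share of all tested genes is set beside these small counts, so they are not read as results about the 43 genes.

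**Figure D4:**
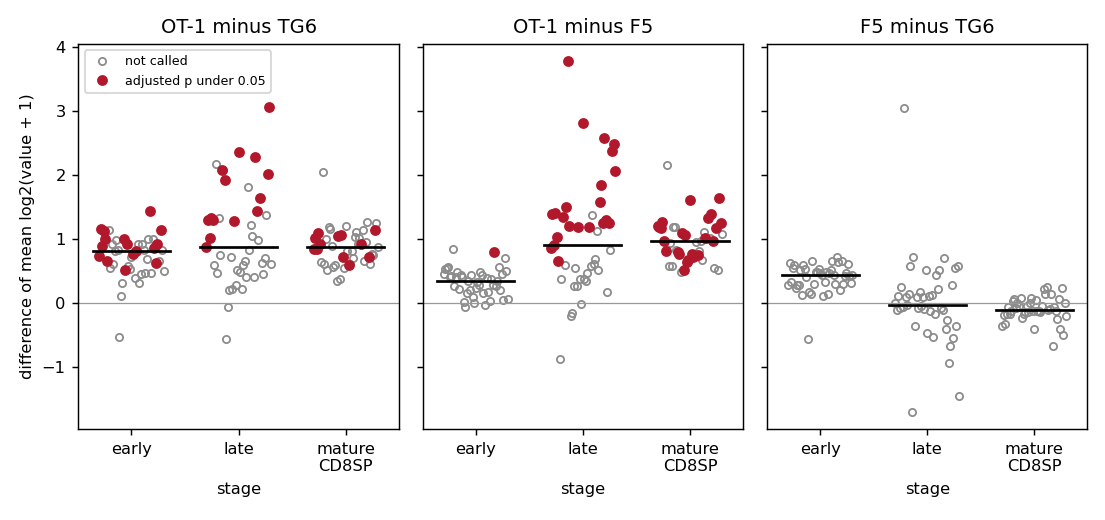
Difference of mean log2(value + 1) between lines for each of the 43 genes (points) at the 3 stages; red points have an adjusted p under 0.05 in limma, open points do not, and black bars are medians. OT-1 minus TG6 has medians of 0.82, 0.87 and 0.88, OT-1 minus F5 0.35, 0.91 and 0.97, and F5 minus TG6 has no red point.

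Whether the stage change itself differed between lines was tested as a difference of differences. Between OT-1 and F5, 2 genes differed from early to late positive selection (background 1.07%), Pole by 2.58 (SE 0.55, adjusted p = 0.017) and E2f1 by 1.67 (SE 0.37, adjusted p = 0.02). Pole fell by 4.07 in F5 and fell by 1.496 in OT-1, and E2f1 fell by 3.05 and 1.38. With mouse as a block 4 genes were called, without F5 late replicate 2 there were 6, and without F5 early replicate 2, OT-1 late replicate 1 or OT-1 early replicate 3 there was 1. The other 3 differences had 0 calls in limma, with lowest adjusted p-values of 0.082 (OT-1 against TG6, early to late, background 0.947%), 0.25 (OT-1 against TG6, late to mature, 0.910%) and 0.29 (OT-1 against F5, late to mature, 0.428%). At an unadjusted limma p under 0.05 they had 4 genes higher, 1 higher and 2 lower, and 4 higher and 2 lower, with no share of all tested genes taken at that threshold. The block gave 1 call in each of these 3. In the late to mature differences, 2 genes were called against TG6 without TG6 mature replicate 3, and 1 against F5 without F5 late replicate 2. Without both TG6 mature replicate 3 and F5 mature replicate 2, 7 genes were called higher in each of them, against 4.64% and 4.44% of all tested genes called in either direction, and the medians went from −0.04 to 0.42 against TG6 and from −0.03 to 0.23 against F5.

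In mature TG6, replicate 3 was above both other libraries in all 43 genes. Its values were 1.56 to 5.93 times the mean of the other 2, with a median of 2.93, and they reached or passed the mature OT-1 range for 40 genes and lay above it for 28. Mature F5 replicate 2 was above both other libraries in 42 of 43 genes, by 1.16 to 2.58 times their mean with a median of 1.67. Late F5 replicate 2 was more than double the mean of the other 2 in 12 genes, with a median ratio of 1.29. Of the 7 immature markers, 6 were highest in TG6 mature replicate 3 (Cd44 was lowest there), 3 (Il2ra, Ptcra and Dntt) in F5 mature replicate 2, and the same 3 in F5 late replicate 2, where Cd44 and Notch3 were lowest. Ptcra was at 787 in TG6 mature replicate 3 against 94.9 and 94.5 and Dntt at 7845 against 1596 and 1267. Rag1, a gene of double-positive thymocytes that is not among the 7, was at 5265 against 696 and 620 in these libraries. It was at 2698 in F5 mature replicate 2 against 704 and 1896, and at 1658 in F5 late replicate 2 against 62.3 and 109. Early sums also differed between lines (11000 to 13200 in OT-1, 22721 to 24640 in TG6), so the sums of the high libraries are compared within lines. Marker values of different lines that follow side by side carry this limit. In mature OT-1 the sums were 2622 to 4307, and the geometric level of the 7 markers was 269, 212 and 305, beside 203 and 193 in TG6 replicates 1 and 2 and 185 and 220 in F5 replicates 1 and 3.

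**Figure D5:**
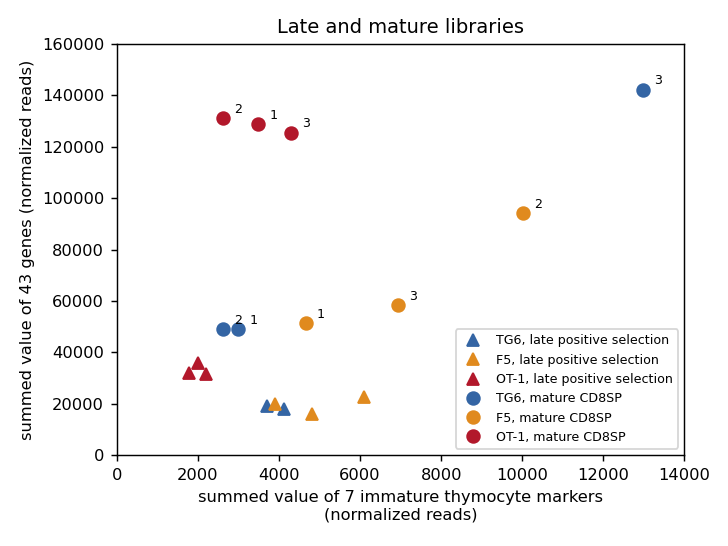
Summed value of the 43 genes against the summed value of 7 immature thymocyte markers in the late (triangles) and mature (circles, labelled with replicate numbers) libraries, both in normalized counts. TG6 mature replicate 3 (12975 and 142232) and F5 mature replicate 2 (10030 and 94183) lie to the right of the other mature libraries of their lines. The 3 mature OT-1 libraries have marker sums of 2622 to 4307 and gene sums of 125519 to 131023.

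Orc1 and Gins2 departed most from the common course along with Ung. Orc1, the largest origin recognition subunit, varied between replicates with a pooled within-group SD of 1.16 on the log2 scale, against a median of 0.37 over the 43 genes. Its values were 126, 124 and 377 in TG6, 719.9, 152 and 97.5 in F5 and 532, 692 and 170.3 in OT-1 early, 28.6 and 27.3 in TG6, 519, 346 and 73.8 in F5 and 291, 142 and 51.7 in OT-1 late and 60.7, 69.7 and 344 in TG6, 148, 126 and 61.8 in F5 and 476, 945 and 233 in OT-1 in mature cells. Early and late values of Orc1 did not overlap in TG6 but did in F5 and OT-1, and the fall in TG6 (−2.65, SE 0.95, adjusted p = 0.044) was its one call among the stage changes and line comparisons. Gins2 had its highest group mean in early TG6, at 2029.9, 2346 and 2253, and the early OT-1 and F5 values were 1499.9, 1757 and 1362 and 1424, 1572 and 1518. Single mature libraries, TG6 replicate 3 (2868) and OT-1 replicate 1 (2690), were above every early TG6 library. All early TG6 libraries were thus above all early libraries of OT-1 and F5, but the difference from OT-1 was not called (−0.53, SE 0.29, adjusted p = 0.18). Of the exonic bases of Gins2, 67.3% overlap Gse1 on the opposite strand, and in 15 of the 43 genes some exonic bases are shared with another gene.

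Other lists of genes were counted in the same way. Of 43 other replication genes, 24 fell from early to late positive selection in TG6, 30 in F5 and 31 in OT-1, while 2, 2 and 1 rose, and 33, 29 and 37 rose to the mature stage, well above the shares of all tested genes given for these comparisons. OT-1 was higher than TG6 in 11, 4 and 11 of them and than F5 in 2, 11 and 19 at the early, late and mature stages, and lower than TG6 in 1 at the early stage. The late count against TG6 (4 of 43) and the early count against F5 (2 of 43) were no higher than the shares over all tested genes, 9.34% and 7.81%. Without TG6 mature replicate 3 and F5 mature replicate 2 the mature counts were 32 and 30, with medians of 0.90 in place of 0.65 and 0.83 in place of 0.73. In those fits 28.6% and 30.9% of all tested genes were called in either direction. Ticrr, which helps to load Cdc45, was higher in late OT-1 than in late TG6 by 2.79 (SE 0.50, adjusted p = 0.00047). Of 26 genes of G2 and mitosis, 25, 25 and 26 fell from early to late in TG6, F5 and OT-1, with medians of −5.41, −5.47 and −3.95 on the log2 scale, and the same numbers rose to the mature stage. Without both libraries 25 rose and 1 fell in TG6 and likewise in F5, with medians of 3.74 in place of 4.44 and 3.71 in place of 4.10. At the late stage OT-1 was higher than TG6 in 12 of the 26 and lower in 1, and higher than F5 in 6 and lower in 1. Late F5 replicate 2 stood apart in these genes, with a geometric mean level of 377 against 44.4 and 38.0 in the other late F5 libraries and 156 to 233 in late OT-1. Without it 19 were higher in OT-1 than in F5 and 1 lower, in a fit for which no share of all tested genes is given. Of the genes called against TG6, Cenpf was higher in late OT-1 than in late TG6 by 4.16 (SE 1.15), Aurkb by 3.12 (SE 0.84) and Mki67 by 3.07 (SE 0.86). At the early stage 1 of the 26 was called higher in OT-1 than in TG6, a smaller share than the 15.4% of all tested genes, although all 26 differences were positive with a median of 0.65, and against F5 21 differences were negative with a median of −0.11. In mature cells 3 were higher than in TG6 and 2 than in F5, against 4.67% and 13.3% of all tested genes, so that the count against F5 was below the background. Without both libraries 18 and 11 were higher, where 28.6% and 30.9% of all tested genes were called in either direction, with medians of 1.97 in place of 1.31 and 1.56 in place of 1.12.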

How the data were processed

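RNA of 26 sorted thymocyte libraries was sequenced, and per the submitters' processing notes and the methods reads were trimmed with Trimmomatic 0.32, aligned with Bowtie2 2.3.2 to mm10 and quantified with RSEM 1.2.31. The authors deposited 1 table of estimated counts that they divided by DESeq2 size factors, treated here as a signal per gene symbol. Multiples of 1 read explained 42.39% to 44.25% of the values within 0.01 of a step, so whole reads were not recovered and a count test was not used in place of the study's DESeq2 test. The number of reads behind a value is therefore unknown.

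Group means of log2(value + 1) were compared with limma 3.58.1 in R 4.3.3, in 1 fit over 9 groups and 26 libraries with 17 residual degrees of freedom and a trended prior variance, and p-values were adjusted by Benjamini-Hochberg over the 16372 symbols that reached 10 in 2 or more libraries. The procedure was tested on simulated data. A gene is called, or said to rise or fall, at an adjusted p under 0.05. Groups were taken from the labels. The p-values rest on 1 spread per gene between libraries of a group, pooled over all 9 groups and drawn toward the prior. They do not use the spread of the compared groups alone. The main fit held no term for mouse, so its stage comparisons treat libraries taken below as 1 mouse as independent.

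The design gives 3 mice per line, each sorted into the 3 populations, so equal replicate numbers within a line were taken as 1 mouse. Deviations of same-numbered libraries correlated at 0.106 to 0.34 in F5, 0.0189 to 0.178 in OT-1 and 0.023 to 0.274 in TG6. Between lines the numbers join different mice.

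The 43 genes, their roles and the other lists were chosen with earlier results of these data known. Values in every library are given for the first gene of each role and the 3 widest and 3 narrowest swings. The 3 largest and 3 smallest called differences of a comparison are named, and up to 3 called genes of other lists. Mcm3, Mcm5, Cdc6, Pole, Ung, E2f1, Dtl, Orc1 and Gins2, the contrasts of mature against early thymocytes the fit without TG6 mature replicate 3 and F5 mature replicate 2, and the counts of other lists without F5 late replicate 2 were added after values were seen. Gene positions and principal transcripts are from GENCODE vM21 and promoters from RefSeq. Alternatives covered the pseudocount, filter, scaling, variance prior, library weights, libraries in the fit and the replicate block.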

Additional observations from a re-analysis of the deposited data

Results flagged for a closer look

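In 2 of the 43 genes the change from early to late positive selection differed between OT-1 and F5 by a test of the difference itself in limma. Pole, which encodes the catalytic subunit of polymerase epsilon, changed by −1.496 in OT-1 (SE 0.39) and −4.07 in F5 (SE 0.39), and E2f1 by −1.38 (SE 0.26) and −3.05 (SE 0.26) on the log2 scale. The differences of 2.58 and 1.67 had adjusted p-values of 0.017 and 0.02. All 3 late OT-1 libraries were above all 3 late F5 libraries in both genes, by the values given above. Against TG6 the same differences were 1.64 (SE 0.58, adjusted p = 0.2) for Pole and 0.89 (SE 0.39, adjusted p = 0.36) for E2f1. Late F5 replicate 2 had the highest Pole value of its group (222 against 70.5 and 52.5). Without it 6 genes were called, in a fit for which no share of all tested genes is given.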

How the results depend on the processing

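Counts of called genes among the 43 moved with the libraries in the fit and their weights, in part together with the share of all tested genes called in either direction, which is given in parentheses. With the other groups left out of the fit, OT-1 against TG6 had 39, 26 and 0 calls at the early, late and mature stages (31.4%, 18.2% and 1.65%), OT-1 against F5 had 18 early (14.3%), F5 against TG6 had 20 early (10.2%) and TG6 from late to mature had 6 (3.85%). The early to late change of OT-1 differed from that of TG6 in 6 genes and from that of F5 in 5 (4.48% and 1.55%), and the mature against early contrast had 1 call in TG6 and 19 in OT-1 (24.4% and 25.2%). With estimated library weights (0.141 for TG6 mature replicate 3), OT-1 against TG6 had 33, 37 and 43 calls (42.6%, 35.8% and 43.2%, against 27.8%, 15.5% and 9.74% without weights), OT-1 against F5 10 early and 39 mature (27.1% and 36.6%), and F5 against TG6 14, 5 and 3 (16.7%, 8.87% and 16.6%). The 4 differences of stage changes then had 5 and 8 calls against TG6 (8.68% and 11.4%) and 11 and 2 against F5 (5.19% and 4.89%), and the mature against early contrasts had 16 in TG6, with 12 of them lower, 7 in F5 and 15 in OT-1 (50.1%, 27.7% and 34.6%).

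The 1 early call of OT-1 against F5 was 0 with no filter, with equal totals, with no variance trend and with the replicate block. The block gave 1 call in late F5 against TG6 (5.23%), 1 and 1 in the differences of stage changes against TG6 (4.47% and 3.31%), 4 and 1 in those against F5 (4.45% and 3.87%), and 12, 1 and 8 in the mature against early contrasts of TG6, F5 and OT-1 (42.6%, 27.9% and 31.3%), and moved no other count of calls by over 1.5 times. Without both TG6 mature replicate 3 and F5 mature replicate 2 there were 41 and 38 mature calls against TG6 and F5 (28.6% and 30.9%), 7 and 7 in the late to mature differences (4.64% and 4.44%), and 10, of them 8 lower, and 21, all lower, in the mature against early contrasts of TG6 and F5 (36.3% and 25.4%). Both libraries were picked for standing high in these genes, so the direction of the shifts without them follows from that choice. The cause of these changes was not tested.

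Leaving out 1 library at a time gave 9 to 15, 6 to 14 and 0 to 41 calls for OT-1 against TG6, 0 to 0 and 12 to 33 for OT-1 against F5 early and mature, and 0 to 3 and 0 to 2 for F5 against TG6 late and mature. It gave 0 to 2 for the late to mature difference against TG6, 1 to 6 and 0 to 1 for those against F5, and 2 to 13, 0 to 1 and 2 to 4 for mature against early in TG6, F5 and OT-1; without TG6 mature replicate 3 the 8 calls of TG6 were mostly lower. The share of all tested genes called can also move when a library is left out. Most leave-one-out counts stand without it, and they show only how far a count moved. Of 77 differences of single genes, 39 lost their call under at least 1 alternative and 0 changed direction. The files give no read counts, so depth limits could not be set.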

Other observations

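Some cell cycle genes outside the set went against its course. Samhd1, which breaks down deoxynucleotides, was nearly absent from early TG6 and F5 thymocytes, at 11.5 ± 7.02 and 9.03 ± 0.71, and stood at 312 ± 125 in early OT-1 (SD, n = 3). Myeloid cells also express Samhd1, and the sums of the 7 macrophage and dendritic cell markers were higher in the same early OT-1 libraries (139 to 350, against 46.1 to 110 in early TG6 and F5), whose part in the difference was not tested. Samhd1 rose with maturation in all lines, to 1353 to 1611 in the 3 mature TG6 libraries, 203 to 404 in mature F5 and 2019 to 3043 in mature OT-1. The OT-1 against TG6 difference in Samhd1 was 4.75 early (SE 0.34, adjusted p = 1.4e-09) and 2.57 late (SE 0.38, adjusted p = 5.9e-05) by limma.

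Ccnd2, cyclin D2, also rose where the replication genes fell. It was at 2268 ± 1338 in late TG6 (n = 2), 325 ± 83.1 in late F5 and 6474 ± 1510 in late OT-1, against 42.0 ± 14.3 and 48.8 ± 28.4 in early TG6 and F5. In early OT-1 the 3 libraries ran from 145 to 2501, so that 1 library sets much of that mean. Klf2, a factor of thymocyte maturation and quiescence, was higher in OT-1 than in TG6 both early (2.58, SE 0.50, adjusted p = 0.00064) and late (3.05, SE 0.56, adjusted p = 0.00065). In mature cells all 3 OT-1 libraries of Klf2 (8061 to 12695) were above all 3 TG6 libraries (5776 to 6993), but the difference was not called (0.72, SE 0.50, adjusted p = 0.38).

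Of 28 regulators of the cell cycle, 13 fell and 3 rose from early to late positive selection in TG6, 14 fell and 1 rose in F5, and 12 fell and 4 rose in OT-1. Of all tested genes 13.3%, 14.0% and 14.0% fell and 12.1%, 12.7% and 12.7% rose, so the numbers that rose were near or below the background. To the mature stage 11 rose and 2 fell in TG6, 13 rose and 3 fell in F5, and 11 rose and 1 fell in OT-1, where 14.5%, 12.2% and 14.0% of all tested genes rose and 7.79%, 8.31% and 10.4% fell. Without TG6 mature replicate 3 and F5 mature replicate 2, 11 rose and 3 fell in TG6 and 12 rose and 2 fell in F5.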
